A study of Homo sapiens with 36 samples.

Results

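The genes described here are 54 genes of DNA replication and S phase, out of 37549 gene symbols in the count table of a drug-exposure experiment in B-cell lines. They were chosen by symbol, with earlier results of these data known. They cover origin licensing (12 genes), origin firing (8), the sliding clamp and its loader (6), replicative polymerases (8), lagging-strand enzymes and the single-strand binding protein (6), fork components (4, counting MCM8, a helicase of recombination repair), chromatin and histone factors (4), nucleotide supply (3) and E2F transcription factors (3). The 36 RNA-sequencing libraries came from the B lymphoblastoid leukaemic lines MEC1 (p53 mutated), JVM2 and EHEB (both p53 wild-type), each given DMSO as vehicle, 50 µM fludarabine, 5 µM ibrutinib or 10 µM idelalisib, with 3 libraries in each of the 12 groups. MEC1 cells were exposed for 48 h, JVM2 cells for 72 h and EHEB cells for 96 h, so line, p53 status and exposure time cannot be told apart. Fludarabine is a purine nucleoside analogue that interferes with DNA synthesis, ibrutinib is a covalent inhibitor of Bruton tyrosine kinase, and idelalisib inhibits the delta isoform of phosphoinositide 3-kinase. The study's methods speak of independent experiments in general, but neither they nor the labels say whether the libraries of a group came from separate cultures, so p-values measure only the spread between these samples, which may be technical. The DMSO and fludarabine libraries of a line carry neighbouring library numbers and the libraries of both kinase inhibitors carry another run of numbers, so a kinase inhibitor effect cannot be told apart from any difference of these runs, whereas ibrutinib and idelalisib lie in the same run.

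Before a cell copies its DNA, the origin recognition complex, CDC6 and CDT1 load rings of the MCM helicase (MCM2 to MCM7) on origins, a step held back by geminin (GMNN). At the start of S phase the kinase CDC7 with DBF4, together with cyclin-dependent kinases, turns each loaded ring into a moving helicase by adding CDC45 and the GINS complex, and polymerases, clamp, ligase and nucleases then follow the fork. Transcription of many of these genes rises at the passage from G1 to S phase under E2F factors, which the retinoblastoma protein restrains in G1, so their mRNA as a group is widely read as a sign of cells entering the cycle. In bulk RNA, fewer cells in S phase and less RNA per cell cannot be told apart.

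The promoters of the members are shown first, because E2F sites are the sequence feature for which this gene class is best known. The RefSeq promoter window (GRCh38.p14, 250 bases before to 50 bases after the annotated start) was available for 46 of the 54 members. The words TTTCCCGC, TTTGGCGC, TTTCGCGC and TTTGCCGC were searched on both strands, and words that overlap each other were counted as found. Where a gene has several windows, a word in any of them counted. At least 1 word occurred for 26 of the 46 members (56.5%), against 1090 of the 27305 genes of the whole table (3.99%). In related lists used further below, it occurred for 7 of 19 other replication genes (36.8%). The counts were 4 of 13 (30.8%) for genes of the retinoblastoma, E2F and cyclin E network and 2 of 16 (12.5%) for mitosis genes. By role the words were found for 7 of 10 licensing genes, 4 of 7 firing genes, 2 of 6 clamp genes, 4 of 7 polymerase genes, 1 of 3 lagging-strand genes, 3 of 4 fork genes, 1 of 4 chromatin genes, 2 of 3 nucleotide genes and 2 of 2 E2F genes. A match is a description of the letters in the window, not evidence that a factor binds there. Of the 46 members with a window, 20 had no word, among them ORC1 and CDC45, which have large falls below. The 8 members shown here were picked by name from those with a word. Printed 5′ to 3′ on the strand of the gene, with the words in capitals, are their stretches. They are CDT1 at chr16:88803738-88803777 (plus strand), MCM6 at chr2:135876506-135876611 (minus), GINS2 at chr16:85688962-85689001 (minus), PCNA at chr20:5126658-5126697 (minus), LIG1 at chr19:48170435-48170474 (minus), TYMS at chr18:657598-657637 (plus), E2F1 at chr20:33686386-33686434 (minus) and E2F2 at chr1:23531252-23531291 (minus), all before the RefSeq start on which the window was set. The stretches of GINS2 and LIG1 lie within these genes as GENCODE release 44 annotates them.
CDT1: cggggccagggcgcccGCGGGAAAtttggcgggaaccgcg
MCM6: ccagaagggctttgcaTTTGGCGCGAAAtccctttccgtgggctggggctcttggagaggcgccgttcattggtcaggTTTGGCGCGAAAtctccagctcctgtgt
GINS2: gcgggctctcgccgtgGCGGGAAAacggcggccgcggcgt
PCNA: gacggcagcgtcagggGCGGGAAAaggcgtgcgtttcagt
LIG1: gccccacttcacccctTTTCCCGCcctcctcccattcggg
TYMS: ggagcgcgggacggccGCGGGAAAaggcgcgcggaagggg
E2F1: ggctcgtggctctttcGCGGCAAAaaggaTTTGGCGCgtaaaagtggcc
E2F2: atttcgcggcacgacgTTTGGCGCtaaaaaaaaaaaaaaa
In the MCM6 stretch the 4 words form 2 pairs in which each word shares bases with its partner.

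All 54 members passed the filter on low counts in every fit, and the smallest member count in any library was 33. Library totals ranged from 26590705 to 53538925 counts, with a median of 42114145.5. Low counts clustered at 3, 6, 11 and 14, each of these values being more frequent than both its neighbours in 34 or more of the 36 libraries, so a sequenced fragment may be worth more than 1 deposited count and the totals may overstate the depth. The B-cell markers MS4A1, CD79A, CD79B, PAX5 and CD22 held at least 746 counts in every library. Of the markers of other cells, CD3D and CD3G (T cells), NCAM1 (NK cells) and CD14, LYZ and MPO (myeloid cells) never exceeded 37 counts, while CD2 reached 362 counts, CD3E 226, KLRD1 899, NKG7 195 and CSF1R 199. Expression levels are in CPM, for which TMM scaling was done within a line, and the values of a group follow its library numbers, which only name the libraries. The summed level of these 5 B-cell markers lay at 915 to 979 CPM with DMSO and 821 to 834 with fludarabine in MEC1, 1161 to 1176 and 596 to 659 in JVM2, and 1506 to 1564 and 843 to 949 in EHEB. With ibrutinib and idelalisib it lay at 1450 to 1617 and 1470 to 1526 CPM in MEC1, 1262 to 1289 and 1263 to 1285 in JVM2, and 1457 to 1612 and 1475 to 1526 in EHEB. The markers of other cells were far lower but moved with treatment too. In the order DMSO, fludarabine, ibrutinib and idelalisib, the 4 T-cell markers summed to 0.438 to 0.705, 2.38 to 3.595, 0 to 0.405 and 0.101 to 0.593 in MEC1 (CPM), 0 to 0.223, 0.235 to 0.571, 0 to 0.0934 and 0 to 0.0588 in JVM2, and 9.63 to 12.4, 11.6 to 15.6, 5.24 to 5.91 and 3.38 to 6.07 in EHEB. The 3 NK-cell markers summed to 12.1 to 13.3, 18.5 to 20.7, 8.46 to 10.1 and 11.51 to 15.03 in MEC1, 8.72 to 10.7, 1.16 to 2.71, 2.71 to 4.81 and 3.03 to 6.47 in JVM2, and 22.1 to 25.1, 10.7 to 14.2, 13.5 to 14.4 and 8.95 to 13.7 in EHEB. The 4 myeloid markers summed to 0.441 to 0.924, 4.44 to 5.97, 0.405 to 0.5799 and 0.415 to 1.04 in MEC1, 1.096 to 1.56, 1.13 to 1.61, 1.09 to 1.43 and 0.641 to 0.966 in JVM2, and 0.511 to 0.907, 0.8796 to 1.48, 0.366 to 0.613 and 0.502 to 0.916 in EHEB. With fludarabine in MEC1 all 3 of these sums lay above those of all DMSO libraries, and the NK-cell sum was below DMSO with each drug in JVM2 and EHEB. The part of these marker lists in the results below was not tested. 

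With DMSO, the members summed to 7301 to 7502 CPM (MEC1), 1811 to 1845 CPM (JVM2) and 2057 to 2095 CPM (EHEB). Per kilobase of exon, PCNA, the ring-shaped clamp that tethers polymerases to DNA, had the highest level of all members in each line, at 254 RPKM in MEC1, 55.5 in JVM2 and 106 in EHEB. In MEC1 it was followed by CDT1 (132.7 RPKM), MCM3 (118) and MCM7 (107). In JVM2 and EHEB the thymidylate synthase gene TYMS came next, at 34.7 and 44.6 RPKM. The lowest levels per kilobase were those of POLA1 in MEC1 (3.21 RPKM), CLSPN in JVM2 (0.416) and E2F2 in EHEB (1.27). The length used is that of all annotated exons of a gene together, 15547 bases for POLA1 and 9591 for CLSPN. A single mRNA can be shorter, so these ranks depend on the length used.

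Each drug was first compared with DMSO within a line, to ask how the replication genes respond to it. More than 30 of the 54 members were called lower with idelalisib in each line, with ibrutinib in MEC1 and with fludarabine in JVM2, and fewer than 15 in each of the other 4 comparisons. The same DMSO libraries of a line serve all 3 drugs. A gene is called where its adjusted p (Benjamini-Hochberg, over all genes tested) was under 0.05 in the quasi-likelihood test of edgeR.

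**Figure D1:**
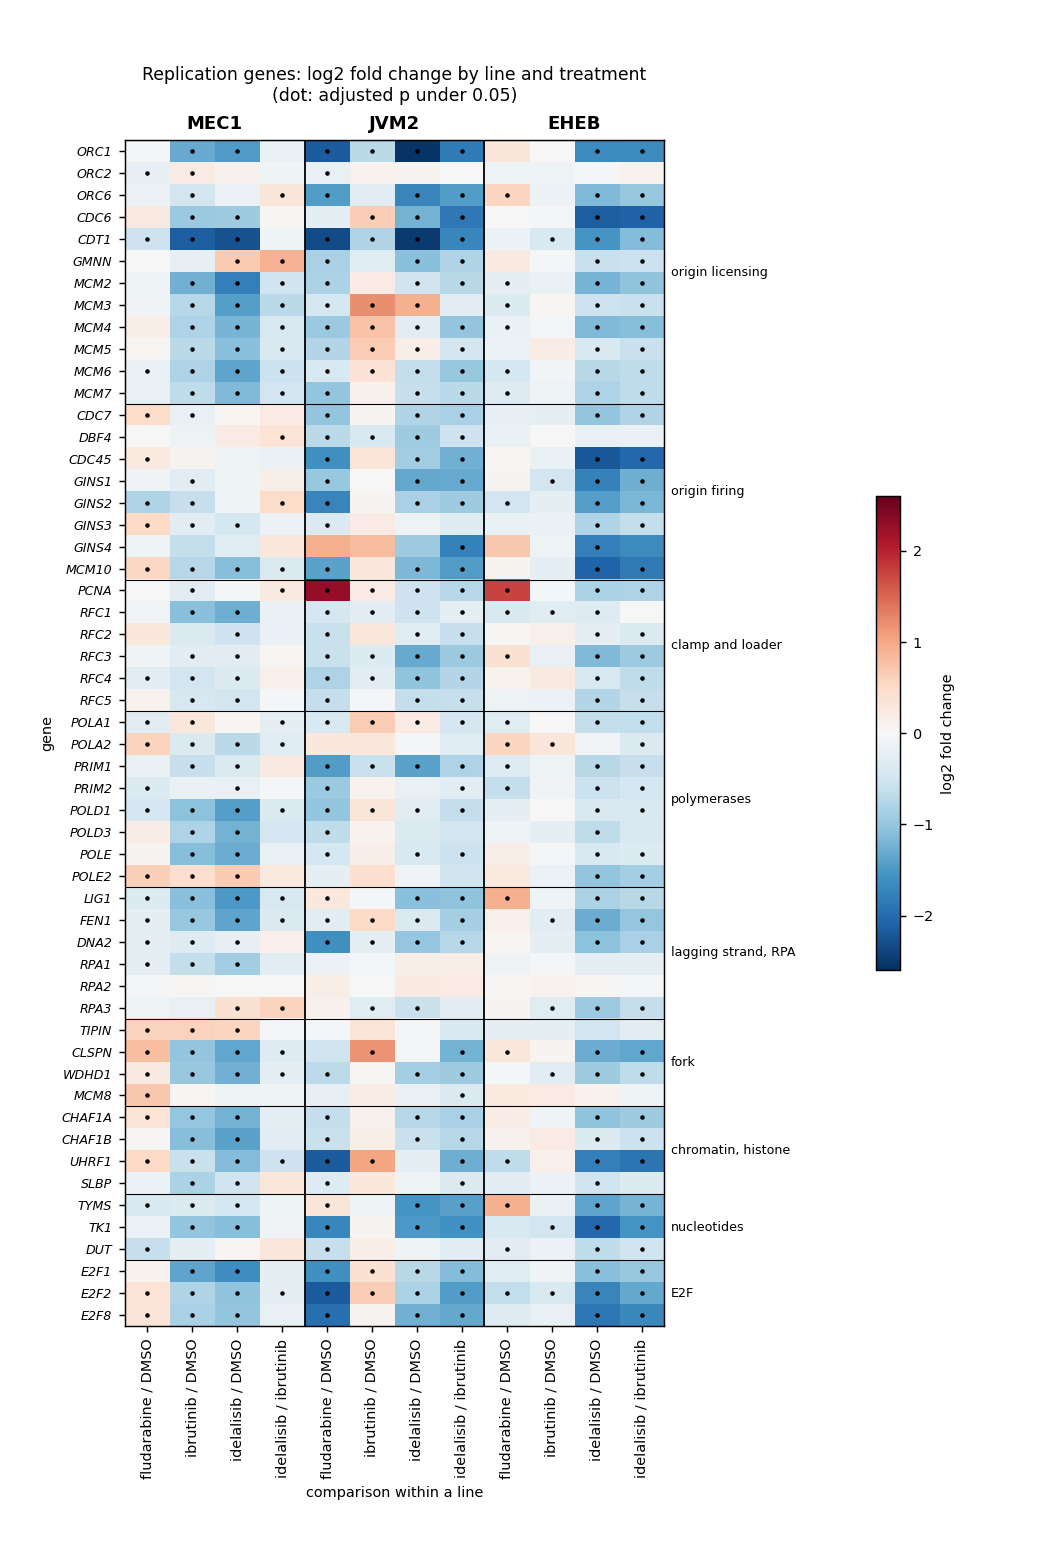
Log2 fold change of each of the 54 genes (rows, ordered by role) in the 12 comparisons within a line (columns, 4 per line), with a dot where the adjusted p was under 0.05. PCNA in fludarabine-treated JVM2 cells is the darkest red cell (2.29) and ORC1 in idelalisib-treated JVM2 cells the darkest blue (−2.54).

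With fludarabine in JVM2, 41 members fell, 3 rose and 10 were not called, beside 23.3% of all genes called lower and 23.9% called higher. The median log2 fold change of the members was −0.63, against 0.06 over all genes tested. The 3 that rose were PCNA, TYMS and LIG1, the ligase that joins Okazaki fragments. In EHEB the same drug lowered 13 members and raised 7, beside 19.2% and 18.4% of all genes, with a median of −0.11 against 0.02. PCNA, TYMS and LIG1 were again among the genes that rose, together with POLA2, ORC6, RFC3 and CLSPN. The ORC6 call was lost on leaving out the first DMSO library or the first fludarabine library (adjusted p = 0.0547 to 0.0569). In MEC1 14 members fell and 14 rose, beside 22.7% and 21.2% of all genes, and the median was −0.04 against 0.06. The counts in EHEB and MEC1 lay near these shares and are no result about the members as a set. All 4 genes grouped under the fork (CLSPN, MCM8, TIPIN and WDHD1) were among those that rose in MEC1, TIPIN also with both kinase inhibitors. LIG1, TYMS, FEN1, DNA2 and RPA1 were among those that fell with fludarabine there. MCM6, GINS2, POLA1, PRIM2 and DUT were the 5 members lower with fludarabine in all 3 lines, beside 8.05% of the genes tested in all 3, a share near the background. Scaling by library size alone moved the median of all genes with fludarabine in MEC1 to 0.31, in JVM2 to 0.255 and in EHEB to 0.13, and the members then split as 24 higher and 2 lower (MEC1), 7 higher and 34 lower (JVM2) and 11 higher and 8 lower (EHEB). Of all genes, 34.6% were called higher and 12.1% lower in MEC1, 35.2% were called higher and 15.7% lower in JVM2 and 23.8% were called higher and 14.7% lower in EHEB under that scaling.

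With ibrutinib in MEC1, 40 members fell and 4 rose, beside 23.9% and 23.7% of all genes, with a median log2 fold change of −0.61 against 0.06 over all genes. The 4 that rose were TIPIN, POLE2, POLA1 and ORC2, the last of which was lost without the filter on low counts and on leaving out the first DMSO library or the first or the second ibrutinib library (adjusted p = 0.0519 to 0.0771). In JVM2 the members split, 13 rising and 9 falling, beside 14.5% and 15% of all genes, and the median was 0.13 against −0.0014. The higher call of PCNA there was lost on leaving out the third DMSO library (adjusted p = 0.056). Among those that rose in JVM2 were MCM3, MCM4, MCM5 and MCM6, CDC6, CLSPN, UHRF1, E2F1 and E2F2, and among those that fell were CDT1, ORC1, PRIM1, DBF4 and RFC3. In EHEB 8 members fell and 1 rose (POLA2), beside 11.2% and 8.5% of all genes, and 45 were not called, with a median of −0.13 against 0.01. A share near the background, as in EHEB or for the members that fell in JVM2, is no result about the members. The POLA2 call in EHEB was lost on leaving out the second DMSO library (adjusted p = 0.0554). CDT1 and RFC1 were the 2 members lower with ibrutinib in all 3 lines, beside 3.16% of the genes tested in all 3, a share near the background. By library size scaling the split was 17 higher and 6 lower in JVM2 and 5 higher and 2 lower in EHEB, where the median of all genes moved to 0.11. Of all genes, 18.6% were called higher and 11.3% lower in JVM2 and 14.2% were called higher and 7.52% lower in EHEB under that scaling. The 4 higher members in MEC1 numbered 2 without the second ibrutinib library, and the 9 lower members in JVM2 5 without the third. The 8 lower calls in EHEB were between 2 and 5 on leaving out any 1 of 10 of the 12 libraries of that line, all but the third fludarabine and the third ibrutinib library.

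With idelalisib the counts were 37 lower and 4 higher in MEC1, beside 27.4% and 27.6% of all genes, and 36 lower and 3 higher in JVM2, beside 22.6% and 21.6%. In EHEB 47 members fell and none rose, beside 18.2% and 15.1% of all genes. The median log2 fold changes were −0.62, −0.59 and −0.83 in MEC1, JVM2 and EHEB, against 0.08, 0.03 and 0.01 over all genes tested. In all, 27 members were lower with idelalisib in all 3 lines, beside 6% of the genes tested in all 3. The members that rose were GMNN, POLE2, TIPIN and RPA3 in MEC1 and MCM3, POLA1 and MCM5 in JVM2. The 3 in JVM2 numbered 1 without the second or the third idelalisib library. The 7 members not called in EHEB were ORC2, DBF4, POLA2, RPA1, RPA2, TIPIN and MCM8.

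Among the licensing factors, CDT1, which brings the MCM ring to the origin (GRCh38, chr16:88803789-88809258, plus strand), fell in 8 of the 9 comparisons with DMSO, the exception being fludarabine in EHEB. In MEC1 it stood at 375, 368 and 356 CPM with DMSO, 237, 261 and 257 with fludarabine, 89.2, 75.2 and 83.5 with ibrutinib and 76.2, 74.98 and 77.96 with idelalisib. The treated libraries of MEC1 were all below the DMSO libraries, and the log2 fold change was −2.15 ± 0.0687 (SE), adjusted p = 7.63e-09, with ibrutinib and −2.26 ± 0.06901 (SE), adjusted p = 7.32e-09, with idelalisib. In JVM2 it stood at 73.6, 68.4 and 70.6 CPM with DMSO, 15.1, 15.96 and 11.3 with fludarabine, 45.6, 36.7 and 41.5 with ibrutinib and 10.996, 13.2 and 13.8 with idelalisib. Here fludarabine and idelalisib gave the lower levels (−2.33 ± 0.137 (SE), adjusted p = 1.75e-07, and −2.48 ± 0.138 (SE), adjusted p = 2.18e-07) and ibrutinib an intermediate one, −0.78 ± 0.131 (SE), adjusted p = 0.00121. In EHEB the levels were 33.9, 27.6 and 30.8 CPM with DMSO, 32.3, 23.1 and 27.96 with fludarabine, 23.03, 21.2 and 25.5 with ibrutinib and 10.3, 10.9 and 10.7 with idelalisib, and the fludarabine libraries overlapped the DMSO libraries.

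ORC1, a subunit of the origin recognition complex that binds origins in G1, stood at 23.5, 24.97 and 27.5 CPM with DMSO, 5.76, 6.404 and 4.79 with fludarabine, 15.6, 15.8 and 15.6 with ibrutinib and 4.57, 4.27 and 4.23 with idelalisib in JVM2. It fell with all 3 drugs there, by most with idelalisib (−2.54 ± 0.108 (SE), adjusted p = 3.53e-08), then fludarabine (−2.17) and ibrutinib (−0.70), with no overlap between treated and DMSO libraries. In EHEB it fell with idelalisib (−1.66) and was not called with fludarabine (0.31, adjusted p = 0.071). CDC6, the ATPase that helps load the MCM ring, stood in EHEB at 12.7, 16.6 and 17.2 CPM with DMSO and 3.03, 3.43 and 4.004 with idelalisib. The groups did not overlap, and the log2 fold change was −2.15 ± 0.154 (SE), adjusted p = 1.76e-06. The origin subunit ORC2 had values between −0.22 and 0.22 over the 9 comparisons.

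The 6 genes of the MCM ring did not move alike in the lines. In MEC1 all 6 fell with both kinase inhibitors, beside 23.9% of all genes with ibrutinib and 27.4% with idelalisib. MCM2 fell by most there with idelalisib, from 414, 375 and 402 CPM with DMSO to 113, 115 and 121 (−1.77 ± 0.118 (SE), adjusted p = 3.66e-07). In EHEB all 6 fell with idelalisib, between −1.22 for MCM2 and −0.40 for MCM5, beside 18.2% of all genes. In JVM2 all 6 fell with fludarabine, beside 23.3% of all genes, but MCM3 rose with both kinase inhibitors. MCM3 stood there at 48.1, 33.7 and 45.2 CPM with DMSO, 30.6, 31.3 and 30.8 with fludarabine, 99.3, 103 and 89.98 with ibrutinib and 77.1, 77.9 and 84.4 with idelalisib. The libraries of both kinase inhibitors were above all DMSO libraries, with log2 fold changes of 1.20 ± 0.113 (SE), adjusted p = 3.10e-05, for ibrutinib and 0.91 ± 0.112 (SE), adjusted p = 6.90e-05, for idelalisib. MCM4, MCM5 and MCM6 also rose with ibrutinib in JVM2 (0.74, 0.66 and 0.37), whereas MCM2 (0.22) and MCM7 (0.11) were not called. With idelalisib, MCM4 and MCM6 fell in that line (−0.29 and −0.61), and the small rise of MCM5 (0.18, adjusted p = 0.0256) was lost without the filter on low counts and on leaving out the second or the third DMSO library or the second or the third idelalisib library (adjusted p = 0.0659 to 0.11).

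MCM7 had the highest mean CPM of the licensing genes over all libraries. Levels in MEC1 were 557, 547 and 490.2 CPM with DMSO, 472, 450.4 and 475 with fludarabine, 351, 299.6 and 355 with ibrutinib and 232.55, 242 and 239.8 with idelalisib. Levels in JVM2 were 92.7, 92.1 and 91.997 CPM with DMSO, 46.5, 45.8 and 42.8 with fludarabine, 99.7, 103 and 95.8 with ibrutinib and 57.7, 62.6 and 62.6 with idelalisib. In EHEB it stood at 75.1, 77.9 and 74.9 CPM with DMSO, 61.96, 59.6 and 60.2 with fludarabine, 73.1, 66.4 and 68.97 with ibrutinib and 38.999, 45.7 and 46.8 with idelalisib. Idelalisib libraries were below DMSO libraries in every line (−1.16, −0.60 and −0.79), and fludarabine libraries were too, although the difference in MEC1 was not called (−0.19, adjusted p = 0.0529). Exons of AP4M1 and MIR93 overlap MCM7, and whether counting used strand is not given in the sources used here. GMNN, the inhibitor of CDT1, fell with idelalisib in JVM2 (−1.08) and EHEB (−0.58). In MEC1 its libraries were uneven, at 51.7, 34.4 and 62.05 CPM with DMSO and 89.6, 51.2 and 97.8 with idelalisib. The groups overlapped there, and the called rise (0.69 ± 0.245 (SE), adjusted p = 0.033) was lost in the fit of only the 2 groups compared and on leaving out the first or the second DMSO library, the first ibrutinib library or the first or the third idelalisib library (adjusted p = 0.0566 to 0.147).

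Of the 8 genes that fire origins, 7 fell with fludarabine in JVM2 and 7 with idelalisib in EHEB, beside 23.3% and 18.2% of all genes. With idelalisib in MEC1 2 of the 8 fell, beside 27.4% of all genes, a share near the background. CDC45, part of the moving helicase, stood in EHEB at 6.48, 7.61 and 6.69 CPM with DMSO and 1.16, 1.53 and 1.78 with idelalisib. Its log2 fold change of −2.21 ± 0.162 (SE), adjusted p = 2.08e-06, was the lowest of all members in that comparison. MCM10, which helps to start the helicase, fell with idelalisib in all lines (−1.11, −1.17 and −2.08) and rose with fludarabine in MEC1 (0.54). GINS2, a GINS subunit, fell with fludarabine in MEC1 from 116, 107 and 114 CPM to 64.5, 62.4 and 66.9. The groups did not overlap, and at −0.80 ± 0.0803 (SE), adjusted p = 1.39e-05, this was the lowest value of any member with fludarabine in MEC1. Exons of GSE1 overlap GINS2 on the opposite strand. GINS4 was uneven between libraries, and values as large as 0.92 with fludarabine in JVM2 were not called (adjusted p = 0.0627).

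GINS1, with the highest mean CPM of the firing genes, stood in MEC1 at 96.4, 102 and 106 CPM with DMSO, 96.5, 89.9 and 98.3 with fludarabine, 81.9, 79.7 and 88.5 with ibrutinib and 95.6, 92.2 and 94.6 with idelalisib. The JVM2 values were 14.5, 11.8 and 13.1 CPM with DMSO, 6.72, 6.295 and 6.97 with fludarabine, 12.3, 13.8 and 12.9 with ibrutinib and 5.31, 5.29 and 5.1995 with idelalisib. Levels in EHEB were 19.7, 18.2 and 19.1 CPM with DMSO, 21.2, 19.5 and 19.2 with fludarabine, 14.5, 12.3 and 14.1 with ibrutinib and 5.14, 6.37 and 5.34 with idelalisib. It was thus lower with idelalisib in JVM2 (−1.32) and EHEB (−1.75) with no overlap, and not called with idelalisib in MEC1 (−0.11, adjusted p = 0.156). Ibrutinib lowered it in EHEB (−0.47 ± 0.0995 (SE), adjusted p = 0.00671), with no overlap. The initiating kinase subunits CDC7 and DBF4 fell with fludarabine in JVM2 (−1.02 and −0.69). DBF4 also fell there with ibrutinib (−0.39), a call lost on leaving out the third ibrutinib library (adjusted p = 0.0666).

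PCNA (chr20:5114953-5126626, minus strand, with no annotated exon of another gene over it) had the largest rise of any member. JVM2 libraries had 77.99, 79.3 and 76.1 CPM with DMSO, 380.4, 398 and 363 with fludarabine, 87.2, 89.6 and 92.6 with ibrutinib and 51.1, 52.98 and 57.4 with idelalisib. The EHEB values were 154, 146 and 146 CPM with DMSO, 495, 504 and 507 with fludarabine, 151, 141.59 and 141.73 with ibrutinib and 84.2, 85.4 and 81.2 with idelalisib. The fludarabine libraries of both lines were far above all their other libraries, at log2 fold changes of 2.29 ± 0.0555 (SE), adjusted p = 2.94e-10, in JVM2 and 1.76 ± 0.0456 (SE), adjusted p = 2.36e-09, in EHEB, while idelalisib libraries were the lowest (−0.53 and −0.83). The MEC1 values were 350, 351 and 367 CPM with DMSO, 365, 328 and 361 with fludarabine, 281.76, 275 and 321 with ibrutinib and 349.6, 320.5 and 366 with idelalisib. The fludarabine and DMSO libraries overlapped in MEC1 (−0.02, adjusted p = 0.869). Scaled by library size, that value became 0.23, adjusted p = 0.0157, below the 0.31 that the median of all genes took.

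The loader subunits RFC1 to RFC5, which open the clamp and place it on DNA, went otherwise. With fludarabine in JVM2 all 5 fell, between −0.81 for RFC4 and −0.45 for RFC1, beside 23.3% of all genes, while PCNA rose. RFC1 fell in 8 of the 9 comparisons with DMSO, by most in MEC1 with idelalisib (−1.26) and ibrutinib (−1.09). RFC3 fell with idelalisib in JVM2 (−1.31) and EHEB (−1.14) and rose with fludarabine in EHEB (0.39). All 5 fell with idelalisib in each line, beside 6% of the genes tested in all 3 lines.

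Among the polymerase genes, 6 of 8 fell with fludarabine in JVM2, beside 23.3% of all genes. With idelalisib 6 fell in MEC1, 3 in JVM2 and 7 in EHEB, beside 27.4%, 22.6% and 18.2% of all genes. The primase subunit PRIM1 fell with idelalisib in all lines and with fludarabine in JVM2 (−1.45) and EHEB (−0.33). Exons of NACA lie over PRIM1 on the same strand and exons of HSD17B6 on the opposite strand. POLA2, the B subunit of polymerase alpha, went the other way with fludarabine, rising in MEC1 (0.58 ± 0.0925 (SE), adjusted p = 4.04e-04) and EHEB (0.56 ± 0.0757 (SE), adjusted p = 1.46e-04). Its partner POLA1, the catalytic subunit, fell with fludarabine in all lines (−0.30, −0.39 and −0.32). POLA1 rose with ibrutinib in MEC1 (0.30) and JVM2 (0.66), where it stood at 27.7, 32.96 and 27.8 CPM with DMSO and 46.1, 45.9 and 47.9 with ibrutinib, without overlap. Its small rise with idelalisib in JVM2 (0.22, adjusted p = 0.0307) was lost without the filter on low counts, in the fit of only the 2 groups compared and on leaving out the first or the third DMSO library or the first, the second or the third idelalisib library (adjusted p = 0.0532 to 0.124). POLE2, the accessory subunit of the leading-strand polymerase, rose in MEC1 with all 3 drugs (0.62, 0.43 and 0.68) and fell with idelalisib in EHEB (−1.03). The MEC1 call with ibrutinib was lost without the filter on low counts, in the fit of all 36 libraries and on leaving out the second or the third DMSO library or the second ibrutinib library (adjusted p = 0.0589 to 0.117).

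POLE, the catalytic subunit of that polymerase, had the highest mean CPM of the group. MEC1 libraries had 165, 171 and 144.05 CPM with DMSO, 165, 178 and 163 with fludarabine, 79.2, 73.7 and 70.4 with ibrutinib and 66.05, 62.02 and 67.2 with idelalisib. In JVM2 it stood at 44.1, 47.8 and 45.97 CPM with DMSO, 30.996, 34.1 and 35.8 with fludarabine, 50.2, 49.6 and 55.5 with ibrutinib and 32.03, 32.8 and 40.2 with idelalisib. EHEB libraries had 47.1, 44.1 and 39.4 CPM with DMSO, 50.3, 46.9 and 49.03 with fludarabine, 42.1, 43.1 and 41.6 with ibrutinib and 28.4, 33.8 and 36.8 with idelalisib. Both kinase inhibitors lowered it in MEC1 without overlap (−1.11 and −1.30), whereas with ibrutinib it was not called in JVM2 (0.17) or EHEB (−0.04). Its fall with fludarabine in JVM2 (−0.45) was not called with library size scaling (−0.25, adjusted p = 0.0678).

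LIG1 (chr19:48115445-48170603, minus strand) rose with fludarabine in the same lines as PCNA. It stood at 34.6, 34.01 and 30.03 CPM with DMSO and 42.2, 38.8 and 37.7 with fludarabine in JVM2, at 29.6, 30.96 and 34.5 and 59.03, 58.6 and 61.7 in EHEB, and at 90.9, 87.1 and 94.6 and 71.1, 73.3 and 69.2 in MEC1. The groups did not overlap in any line, being higher with fludarabine in JVM2 (0.27 ± 0.0713 (SE), adjusted p = 0.00976) and EHEB (0.92 ± 0.0753 (SE), adjusted p = 3.17e-06) and lower in MEC1 (−0.35 ± 0.0883 (SE), adjusted p = 0.00739). With idelalisib it fell in every line (−1.49, −1.08 and −0.83). FEN1, the flap endonuclease that trims Okazaki fragments, rose with ibrutinib in JVM2 (0.49) and fell with it in MEC1 (−0.98) and EHEB (−0.30). Exons of FADS2 lie over FEN1 on the same strand. The nuclease-helicase DNA2 fell with fludarabine in JVM2 (−1.59) and with idelalisib in all lines.

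Replication protein A coats single-stranded DNA, and RPA1, its large subunit, had the highest mean CPM of the lagging-strand genes. It stood in MEC1 at 147, 167 and 159.9 CPM with DMSO, 134.01, 123 and 142.88 with fludarabine, 113, 90.95 and 103 with ibrutinib and 81.3, 88.5 and 82.1 with idelalisib. Levels in JVM2 were 185.25, 185.78 and 194 CPM with DMSO, 179.8, 158 and 169 with fludarabine, 180.3, 204 and 171 with ibrutinib and 213, 209 and 204 with idelalisib. In EHEB it stood at 159, 167 and 163 CPM with DMSO, 169, 138 and 140.2 with fludarabine, 147, 154 and 179.8 with ibrutinib and 127, 151 and 132 with idelalisib. RPA1 was called lower with each drug in MEC1 (−0.24, −0.63 and −0.91) and was not called in JVM2 or EHEB. The MEC1 fludarabine value was 0.0044 when libraries were scaled by size alone, and that call was lost with library size scaling, with counts divided by 8/3, in the fit of all 36 libraries and on leaving out the second or the third DMSO library, the first or the second fludarabine library, the third ibrutinib library or the first or the third idelalisib library (adjusted p = 0.0514 to 0.975). Exons of SMYD4 lie over RPA1 on the opposite strand. RPA2 was the 1 member called in none of the 9 comparisons, with values between −0.03 and 0.22 and levels of 45.3, 42.8 and 43.3 CPM with DMSO and 46.96, 41.8 and 46.01 with idelalisib in EHEB, where 47 other members fell. RPA3 rose with idelalisib in MEC1 (0.39) and fell with it in JVM2 (−0.58) and EHEB (−0.94).

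CLSPN, the adaptor that passes the checkpoint signal from stalled forks to CHEK1, had opposite responses in MEC1. It stood there at 64.8, 66.6 and 60.6 CPM with DMSO, 111, 108 and 112 with fludarabine, 31.6, 29.7 and 33.5 with ibrutinib and 22.9, 25.6 and 26.5 with idelalisib. It rose with fludarabine (0.79 ± 0.0714 (SE), adjusted p = 6.57e-06) and fell with ibrutinib (−1.02) and idelalisib (−1.36), with no overlap. In JVM2 the low levels of 4.79, 3.52 and 3.67 CPM with DMSO rose to 8.36, 9.72 and 8.95 with ibrutinib (1.18 ± 0.198 (SE), adjusted p = 0.00126). TIPIN, which protects the fork together with TIMELESS, rose with all 3 drugs in MEC1 (0.57, 0.60 and 0.56) and was not called in the other lines. MCM8, a helicase of recombination repair, rose with fludarabine in MEC1 (0.71) and was called in no other comparison with DMSO.

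WDHD1, which links polymerase alpha to the helicase, had the highest mean CPM of the fork genes. In MEC1 it stood at 142.93, 156 and 141.88 CPM with DMSO, 180.1, 163 and 177 with fludarabine, 73.2, 73.8 and 75.7 with ibrutinib and 65.2, 60.9 and 60.2 with idelalisib. The JVM2 values were 32.9, 28.9 and 29.1 CPM with DMSO, 18.99, 20.1 and 17.5 with fludarabine, 29.9, 32.1 and 30.8 with ibrutinib and 16.8, 16.01 and 16.2 with idelalisib. Levels in EHEB were 38.7, 38.8 and 40.8 CPM with DMSO, 37.7, 41.4 and 37.04 with fludarabine, 35.3, 31.3 and 31.3 with ibrutinib and 22.9, 19.9 and 19.2 with idelalisib. Idelalisib libraries were below the DMSO libraries in every line (−1.24, −0.89 and −0.93), and fludarabine libraries were above them in MEC1 (0.24) and below them in JVM2 (−0.68). Its fall with ibrutinib in EHEB (−0.27, adjusted p = 0.0412) was lost with library size scaling, without the filter on low counts, in the fit of only the 2 groups compared and on leaving out the first, the second or the third DMSO library, the first, the second or the third fludarabine library, the second or the third ibrutinib library or the second idelalisib library (adjusted p = 0.0501 to 0.201).

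Of the chromatin factors, UHRF1, which reads hemimethylated DNA behind the fork and recruits the maintenance methyltransferase, moved in opposite directions in MEC1 and JVM2. Levels in MEC1 were 93.4, 88.9 and 93.9 CPM with DMSO, 132, 132 and 131 with fludarabine, 64.99, 56.5 and 62.4 with ibrutinib and 43.7, 42.01 and 41.6 with idelalisib. JVM2 libraries had 11.8, 10.9 and 10.2 CPM with DMSO, 2.89, 1.997 and 2.39 with fludarabine, 20.3, 22.7 and 23.6 with ibrutinib and 7.04, 9.35 and 11.3 with idelalisib. Fludarabine thus raised it in MEC1 (0.52) and lowered it in JVM2 (−2.17), and ibrutinib lowered it in MEC1 (−0.59) and raised it in JVM2 (1.02), each without overlap. The histone chaperone subunits CHAF1A and CHAF1B, which deposit histones on new DNA, fell with idelalisib in all lines and with ibrutinib in MEC1.

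SLBP, the binding protein of histone mRNA, had the highest mean CPM of the chromatin genes. The MEC1 values were 208, 199 and 156 CPM with DMSO, 185.56, 183.98 and 139 with fludarabine, 97.99, 114 and 108 with ibrutinib and 151, 95.3 and 148 with idelalisib. In JVM2 it stood at 39.2, 41.1 and 41.5 CPM with DMSO, 36.5, 26.1 and 33.4 with fludarabine, 48.8, 51.5 and 47.3 with ibrutinib and 37.3, 39.3 and 36.7 with idelalisib. The EHEB values were 57.3, 59.4 and 60.9 CPM with DMSO, 47.4, 50.7 and 48.8 with fludarabine, 52.4, 55.1 and 53.2 with ibrutinib and 49.6, 44.8 and 30.4 with idelalisib. It fell with both kinase inhibitors in MEC1 (−0.82 and −0.52), with idelalisib in EHEB (−0.51) and with fludarabine in JVM2 (−0.34). The MEC1 call with idelalisib was lost in the fit of only the 2 groups compared and on leaving out the first or the second DMSO library or the second idelalisib library (adjusted p = 0.0522 to 0.0914), the EHEB call in the fit of only the 2 groups compared (adjusted p = 0.0584), and the JVM2 call with library size scaling, in the fit of only the 2 groups compared, in the fit of all 36 libraries and on leaving out the third DMSO library (adjusted p = 0.0505 to 0.266).

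TYMS (chr18:657653-673578, plus strand), which makes thymidylate, stood in MEC1 at 239.8, 226 and 251 CPM with DMSO, 182, 166 and 195 with fludarabine, 179.5, 169 and 212 with ibrutinib and 184.17, 176 and 161 with idelalisib. Levels in JVM2 were 77.96, 89.7 and 84.6 CPM with DMSO, 106, 114 and 92.8 with fludarabine, 79.5, 73.8 and 78.7 with ibrutinib and 27.3, 29.6 and 30.8 with idelalisib. EHEB libraries had 104, 113 and 107 CPM with DMSO, 196, 214 and 209 with fludarabine, 94.6, 87.9 and 105 with ibrutinib and 43.02, 42.1 and 39.3 with idelalisib. With fludarabine it was higher in JVM2 (0.31 ± 0.0828 (SE), adjusted p = 0.00955) and EHEB (0.93 ± 0.0713 (SE), adjusted p = 1.80e-06) and lower in MEC1 (−0.40 ± 0.0926 (SE), adjusted p = 0.00458), without overlap, although the MEC1 value was not called with library size scaling (−0.15, adjusted p = 0.233). Idelalisib lowered it in all lines (−0.46, −1.53 and −1.38). Exons of ENOSF1 and TYMSOS lie over TYMS on the opposite strand. Thymidine kinase TK1, the salvage route to thymidylate, did not follow TYMS with fludarabine, falling in JVM2 (−1.70) and not being called in EHEB (−0.39) or MEC1 (−0.16). In EHEB it stood at 25.1, 18.95 and 25.1 CPM with DMSO, 15.5, 17.01 and 20.1 with fludarabine, 16.2, 13.7 and 19.3 with ibrutinib and 5.92, 5.195 and 5.59 with idelalisib, and it fell with idelalisib (−2.05 ± 0.1595 (SE), adjusted p = 3.10e-06). Its lower value with ibrutinib there (−0.49 ± 0.151 (SE), adjusted p = 0.0431) had overlapping groups and was lost with library size scaling, without the filter on low counts, in the fit of only the 2 groups compared and on leaving out the first or the third DMSO library, the first or the second fludarabine library, the first or the second ibrutinib library or the first, the second or the third idelalisib library (adjusted p = 0.0516 to 0.166). The dUTPase gene DUT fell with fludarabine in all lines (−0.60, −0.60 and −0.28).

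Of the E2F factors, E2F2, an activator of S-phase genes, stood in MEC1 at 109, 121 and 114 CPM with DMSO, 146, 150.5 and 142.55 with fludarabine, 70.2, 59.6 and 70.1 with ibrutinib and 51.8, 58.3 and 56.6 with idelalisib. The JVM2 values were 7.93, 7.49 and 6.42 CPM with DMSO, 1.77, 1.45 and 1.65 with fludarabine, 11.03, 11.1 and 11.8 with ibrutinib and 3.35, 4.32 and 4.71 with idelalisib. Levels in EHEB were 6.73, 7.203 and 6.89 CPM with DMSO, 4.85, 4.63 and 3.87 with fludarabine, 5.1, 4.91 and 5.85 with ibrutinib and 2.04, 1.99 and 2.29 with idelalisib. It was called in all 9 comparisons, higher with fludarabine in MEC1 (0.35) and with ibrutinib in JVM2 (0.64) and lower in the other 7, from −2.16 with fludarabine in JVM2 to −0.39 with ibrutinib in EHEB. The last of these calls was lost with library size scaling, without the filter on low counts, in the fit of only the 2 groups compared and on leaving out the first, the second or the third DMSO library, the first or the second fludarabine library, the first or the second ibrutinib library or the first, the second or the third idelalisib library (adjusted p = 0.0588 to 0.162). E2F1, another activator, stood in MEC1 at 110.3, 107 and 107 CPM with DMSO, 42.97, 36.1 and 45.5 with ibrutinib and 35.01, 33.9 and 36.5 with idelalisib, without overlap (−1.38 ± 0.0788 (SE), adjusted p = 2.42e-07, and −1.62 ± 0.0795 (SE), adjusted p = 5.89e-08). In JVM2 E2F1 fell with fludarabine (−1.60) and idelalisib (−0.73) and rose with ibrutinib (0.40). E2F8, a repressor of the same genes, fell with idelalisib in all lines (−1.03, −1.25 and −1.87).

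Members with and without an E2F word in the promoter window are given side by side as a description. With idelalisib in EHEB, 23 of the 26 with a word and 17 of the 20 without fell, with medians of −0.93 and −0.64. Of all genes, 18.2% were called lower in that comparison. With fludarabine in JVM2 the counts were 17 of 26 and 19 of 20, beside 23.3% of all genes, with medians of −0.49 and −0.69. All 3 members that rose there carry a word, as the sequences of PCNA, LIG1 and TYMS above show. With ibrutinib in JVM2, 9 of 26 and 2 of 20 rose, beside 14.5% of all genes, with medians of 0.21 and 0.07. For the other comparisons with DMSO, medians with and without a word are given by line. In MEC1 they were −0.0078 and −0.11 with fludarabine, −0.49 and −0.68 with ibrutinib and −0.58 and −0.73 with idelalisib. In JVM2 they were −0.56 and −0.68 with idelalisib. In EHEB they were −0.16 and −0.07 with fludarabine and −0.12 and −0.13 with ibrutinib. A part of the words in the changes was not tested.

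Both kinase inhibitors were compared directly within each line, which asks whether they differ at their doses of 10 µM idelalisib and 5 µM ibrutinib. In JVM2 43 members were lower with idelalisib than with ibrutinib and none was higher, beside 10.5% and 8.21% of all genes, with a median difference of −0.76 against 0.01. In EHEB 44 were lower and none higher, beside 9.09% and 6.77%, with a median of −0.66 against −0.00034. In MEC1 16 were lower and 6 higher, beside 9.37% and 6.01%, with a median of −0.16 against −0.0025. The largest difference of each of these lines was that of CDC6, in EHEB (−2.09 ± 0.154 (SE), adjusted p = 1.13e-05) and JVM2 (−1.87 ± 0.159 (SE), adjusted p = 1.87e-05), and next came CDC45 in EHEB (−2.05) and ORC1 in JVM2 (−1.85). In MEC1 the largest were GMNN, higher with idelalisib (0.90), and MCM3, lower (−0.70 ± 0.113 (SE), adjusted p = 0.00312). The MEC1 call of GMNN was lost on leaving out the first, the second or the third ibrutinib library or the first or the third idelalisib library (adjusted p = 0.0699 to 0.132). The counts in MEC1 depended on scaling, with 3 higher and 30 lower by library size, where the median of all genes was −0.17 and of all genes 2.81% were called higher and 22% lower. The lower calls numbered 7 in the fit of only these 2 groups and 10 without the third ibrutinib library. The 6 higher calls numbered 2 without the first ibrutinib library or the first or the third idelalisib library, and 3 without the second ibrutinib library. In JVM2 CDC6 stood at 0.64 with ibrutinib and −1.23 with idelalisib, each against the same DMSO libraries.

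The difference of a drug's effect between lines was tested as the interaction of line and treatment, fitted to 18 libraries (DMSO and the drug in all lines). For fludarabine the effect was lower in JVM2 than in MEC1 for 40 members and higher for 3, beside 13.5% and 11.7% of all genes. The 3 higher ones were PCNA, TYMS and LIG1. UHRF1 differed most (−2.72 ± 0.155 (SE), adjusted p = 4.62e-09). Between EHEB and MEC1, 16 members were lower and 6 higher in EHEB, beside 16.9% and 12.4%, and PCNA differed most (1.71 ± 0.06703 (SE), adjusted p = 3.28e-10). The count of 6 was near the background and is no result about the members as a set. Between EHEB and JVM2, 34 were higher and 1 lower in EHEB, beside 9.63% and 12.6%, with ORC1 the furthest apart (2.44 ± 0.156 (SE), adjusted p = 1.99e-08). The lone member with a lower fludarabine effect in EHEB than in JVM2 was PCNA (−0.57). The 16 lower differences between EHEB and MEC1 numbered 9 without the first MEC1 fludarabine library, 10 without the second and 10 without the third EHEB DMSO library.

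For ibrutinib, 34 members had a higher effect in JVM2 than in MEC1 and none a lower one, beside 14.9% and 10.9% of all genes, and CLSPN differed most (2.22 ± 0.146 (SE), adjusted p = 1.07e-07). In EHEB against MEC1 31 were higher and 3 lower, beside 14.2% and 12.2%, with CDT1 first (1.75 ± 0.136 (SE), adjusted p = 2.76e-07). The 3 lower ones were TIPIN, ORC2 and POLA1. In EHEB against JVM2 14 were lower and 3 higher, beside 7.45% and 4.54%, with MCM3 first (−1.19 ± 0.161 (SE), adjusted p = 1.91e-04). The count of 3 was near the background and is no result about the members as a set. The 14 lower differences numbered 9 without the second JVM2 DMSO library, and the 3 higher ones numbered 1 without the third DMSO or the first ibrutinib library of JVM2, or the second DMSO, the first ibrutinib or the second ibrutinib library of EHEB. For idelalisib the differences went both ways, 21 higher and 15 lower in JVM2 than in MEC1 (all genes 20.5% and 14.5%) and 15 higher and 21 lower in EHEB than in MEC1 (all genes 20.4% and 17.6%). The largest of these differences were MCM3 for JVM2 against MEC1 (2.41 ± 0.156 (SE), adjusted p = 1.37e-08) and CDC45 for EHEB against MEC1 (−2.06 ± 0.242 (SE), adjusted p = 5.36e-06). Between EHEB and JVM2, 21 members had a lower idelalisib effect in EHEB and 5 a higher one, beside 11.9% and 9.39%, with UHRF1 first (−1.55 ± 0.267 (SE), adjusted p = 6.04e-04). The count of 5 was near the background and is no result about the members as a set.

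The remaining genes of the pathway were taken from lists of 24 further replication genes, 20 mitosis genes and 16 genes of the retinoblastoma, E2F and cyclin E network. Their counts are to be read beside the shares of all genes called in the same comparison, as given above. With fludarabine in JVM2 all 20 mitosis genes fell, with a median of −3.13, led by PLK1 (−4.92) and CDC20 (−4.87), and 16 of the 24 further replication genes fell, led by TICRR (−2.69). In EHEB 11 mitosis genes fell with fludarabine (median −0.39), and of the further replication genes 5 rose and 1 fell. In MEC1 the mitosis genes gave 7 lower and 2 higher with fludarabine (median −0.06) and the further replication genes 4 lower and 6 higher. With idelalisib all 20 mitosis genes fell in JVM2 (median −2.32) and EHEB (−1.78), and in MEC1 the split was 15 lower and 1 higher (−0.39). Of the further replication genes, idelalisib lowered 15, 12 and 14 in MEC1, JVM2 and EHEB. The 16 network genes split with fludarabine into 3 lower and 8 higher (MEC1), 6 lower and 4 higher (JVM2) and 6 lower and 3 higher (EHEB). Of all genes, 22.7% were lower and 21.2% higher in MEC1, 23.3% and 23.9% in JVM2 and 19.2% and 18.4% in EHEB. In the same order of lines, ibrutinib split the network genes into 9 lower and 2 higher, 3 lower and 6 higher and 3 lower and 0 higher. The shares of all genes lower and higher were 23.9% and 23.7%, 15% and 14.5% and 11.2% and 8.5%. Idelalisib split the network genes into 9 lower and 3 higher, 4 lower and 4 higher and 7 lower and 1 higher. The shares of all genes there were 27.4% and 27.6%, 22.6% and 21.6% and 18.2% and 15.1%. Several of these splits of the network genes were near the background, such as the 4 lower and 4 higher with idelalisib in JVM2, beside 22.6% and 21.6% of all genes, and are no result about that list. The same holds for the further replication genes with fludarabine in MEC1, beside 22.7% lower and 21.2% higher of all genes. It also holds for the 5 of them that rose in EHEB, beside 18.4%.

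With ibrutinib in JVM2 18 of 20 mitosis genes fell and none rose, beside 15% and 14.5% of all genes. Their median was −0.89, with TOP2A at −1.22. Of the 54 replication genes, 13 rose and 9 fell (median 0.13). Summed over the list, mitosis genes were at 1871 to 1972 CPM with DMSO and 1052 to 1079 with ibrutinib, and the replication genes at 1811 to 1845 and 1988 to 2042. In EHEB 11 mitosis genes fell with ibrutinib (median −0.41), beside 11.2% of all genes and the 8 replication genes. In MEC1 14 mitosis genes fell and 1 rose with ibrutinib (median −0.43), beside 23.9% and 23.7% of all genes. Of the 24 further replication genes, 14 fell and 3 rose in MEC1, beside 23.9% and 23.7% of all genes. In JVM2 4 of the 24 fell and 4 rose with ibrutinib, beside 15% and 14.5% of all genes. In EHEB 1 of them fell, beside 11.2%. The JVM2 counts were near the background and are no result about that list.

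Of single genes of these lists, the proliferation marker MKI67 fell with both kinase inhibitors in MEC1 (−1.24 and −1.46) and JVM2 (−0.57 and −2.18), with idelalisib in EHEB (−1.80) and with fludarabine in JVM2 (−3.22), and rose with fludarabine in MEC1 (0.30). RRM2, the regulatory subunit of ribonucleotide reductase, fell with fludarabine in JVM2 (−2.54) and with idelalisib in all lines (−0.96, −1.95 and −1.65), with uneven DMSO libraries in MEC1 (361, 169 and 367 CPM). RB1, the brake on E2F, rose with all 3 drugs in MEC1 (0.75, 0.84 and 0.85) and JVM2 (0.36, 0.35 and 0.62) and fell with all 3 in EHEB (−0.62, −0.50 and −0.36). CCNE1, a G1 to S cyclin, fell with both kinase inhibitors in MEC1 (−0.45 and −0.66), and CCNE2 rose with fludarabine in MEC1 (0.46) and fell with idelalisib in EHEB (−1.02).

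CDKN1A, the cyclin-dependent kinase inhibitor p21 that p53 induces, rose with fludarabine in MEC1 (0.61 ± 0.0779 (SE), adjusted p = 8.50e-05) from 113, 112 and 115 to 184.37, 158 and 176 CPM. In JVM2 its libraries stood at 489, 503 and 503 CPM with DMSO and 1171, 1181 and 393 with fludarabine (0.88 ± 0.303 (SE), adjusted p = 0.0341). In EHEB they stood at 656, 642 and 680.2 and 1856, 569 and 1814, which was not called (1.10 ± 0.456 (SE), adjusted p = 0.082). In each of the p53 wild-type lines 2 of the 3 fludarabine libraries were far above DMSO and the other (the third in JVM2, the second in EHEB) was below it, while PCNA, LIG1 and TYMS in those same libraries were above all DMSO libraries of the line. E2F7, a repressor E2F, rose with fludarabine in JVM2 (2.18) and EHEB (1.91).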

How the data were processed

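Total RNA depleted of ribosomal RNA was sequenced in 36 libraries, 3 for each of 4 treatments in each of 3 cell lines. The authors trimmed the reads with Trimmomatic, aligned them to GRCh38 with HISAT2 (version 2.1) and estimated counts with StringTie (version 1.3.4). The deposited values are estimated counts per gene, written as whole numbers and not normalized. For strand and read length nothing is given in the sources used here. The entry with no gene name, 0.00384% of all counts, was left out, and a further B-cell marker gene is not reported here.

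Each line was fitted separately over its 12 libraries with edgeR (version 4.0.16, R 4.3.3), using TMM scaling, the filterByExpr filter (minimum count 10, minimum total 15), the quasi-likelihood F-test and Benjamini-Hochberg adjustment over all genes tested, with a threshold of 0.05. The standard error is the log2 fold change divided by the square root of F. Differences between lines are the interaction of line and treatment. CPM are TMM-scaled, and RPKM and gene positions used GENCODE release 44 (GRCh38). Exons of other genes also overlap members for which the text does not say so, such as LIG1, RFC4, GINS1 and CHAF1B. The script was tested on simulated data. Alternatives were DESeq2 (version 1.42.0), library size scaling, no filter on low counts, only the 2 groups compared, all 36 libraries in 1 fit, each library left out, and, chosen after seeing the data, counts divided by 8/3.

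The members and lists were chosen with earlier results of these data known. For each comparison the text names the members with the largest changes among those called, the member with the highest mean level of each role, and a few fixed genes of the wider lists. Many further members, such as RPA2, MCM8, DUT and E2F8, are named outside these rules. Replicates of a group differed by more than counting error, with chi-square per degree of freedom from 24.9 to 48.9.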

Additional observations from a re-analysis of the deposited data

Results flagged for a closer look

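The results listed here drew attention because the effect of the same drug differed between lines in a direct test, the interaction of line and treatment in edgeR's quasi-likelihood test. For fludarabine, JVM2 minus MEC1, 3 members had a higher and 40 a lower effect in JVM2, beside 11.7% and 13.5% of all genes, with UHRF1 furthest apart at −2.72 on the log2 scale. For EHEB minus MEC1, 6 were higher and 16 lower, beside 12.4% and 16.9% of all genes, with PCNA at 1.71. The count of 6 was near the background and is no result about the members as a set. The 16 numbered 9 without the first MEC1 fludarabine library, and 10 without the second or without the third EHEB DMSO library. For EHEB minus JVM2, 34 were higher and 1 lower, beside 9.63% and 12.6% of all genes, with ORC1 at 2.44.

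For ibrutinib, JVM2 minus MEC1, 34 members had a higher effect in JVM2 and 0 a lower one, beside 14.9% and 10.9% of all genes, with CLSPN at 2.22. For EHEB minus MEC1, 31 were higher and 3 lower, beside 14.2% and 12.2% of all genes, with CDT1 at 1.75. For EHEB minus JVM2, 3 were higher and 14 lower, beside 4.54% and 7.45% of all genes, with MCM3 at −1.19. The count of 3 was near the background and is no result about the members as a set. Leaving out 1 library at a time gave 1 to 3 higher and 9 to 18 lower there, with 9 without the second JVM2 DMSO library.

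For idelalisib, JVM2 minus MEC1, 21 members had a higher and 15 a lower effect in JVM2, beside 20.5% and 14.5% of all genes, with MCM3 at 2.41. For EHEB minus MEC1, 15 were higher and 21 lower, beside 20.4% and 17.6% of all genes, with CDC45 at −2.06. For EHEB minus JVM2, 5 were higher and 21 lower, beside 9.39% and 11.9% of all genes, with UHRF1 at −1.55. The count of 5 was near the background and is no result about the members as a set. Exposure times differed between the lines, so line and time cannot be told apart in any of these differences.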

How the results depend on the processing

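All 42 counts of members stayed within 1.5 times their value with DESeq2 and with all 36 libraries in 1 fit. With library size scaling the members with fludarabine were 24 higher and 2 lower in MEC1, 7 higher in JVM2, and 11 higher and 8 lower in EHEB. Idelalisib against ibrutinib in MEC1 then gave 3 higher and 30 lower, idelalisib in JVM2 6 higher, and ibrutinib in EHEB 5 higher and 2 lower. Of the 686 member calls, 5 changed sign with this scaling, and 0 with any other alternative. Among the values named in the text these include RPA1 with fludarabine in MEC1, at 0.0044 (adjusted p = 0.975, edgeR), and PCNA there, which had not been called, moved to 0.23 (adjusted p = 0.0157). Without the filter on low counts, the higher members numbered 2 for ibrutinib in MEC1 and 1 for idelalisib in JVM2, the lower members with ibrutinib in EHEB 3, the lower differences for fludarabine between EHEB and MEC1 10, and the higher ones for ibrutinib between EHEB and JVM2 1. In fits of only the 2 groups compared, idelalisib against ibrutinib in MEC1 had 7 lower, fludarabine in JVM2 5 higher and ibrutinib in EHEB 3 lower. With counts divided by 8/3, ibrutinib in EHEB had 2 higher. The causes were not tested.

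Leaving out 1 library at a time, with libraries named by their order within a group, ibrutinib in MEC1 had 2 to 4 higher (2 without the second ibrutinib). Idelalisib against ibrutinib in MEC1 had 2 to 6 higher (2 without the first ibrutinib or the first or the third idelalisib, 3 without the second ibrutinib) and 10 to 21 lower (10 without the third ibrutinib). In JVM2, ibrutinib had 5 to 8 lower (5 without the third ibrutinib), idelalisib 1 to 4 higher (1 without the second or the third idelalisib), and idelalisib against ibrutinib 0 to 1 higher (1 without the second ibrutinib). In EHEB, ibrutinib had 0 to 2 higher (0 without the second DMSO, 2 without the second ibrutinib) and 2 to 8 lower (2 without the first DMSO or the second ibrutinib, 3 without the third DMSO, 4 without the second DMSO, the first ibrutinib or the second idelalisib, 5 without the first or the second fludarabine or the first or the third idelalisib). Of the differences between lines, fludarabine in EHEB against MEC1 had 9 to 16 lower (9 without the first MEC1 fludarabine, 10 without the second or without the third EHEB DMSO), ibrutinib in JVM2 against MEC1 0 to 1 lower (1 without the second JVM2 ibrutinib), and ibrutinib in EHEB against JVM2 1 to 3 higher (1 without the third DMSO or the first ibrutinib of JVM2, or the second DMSO or the first or the second ibrutinib of EHEB) and 9 to 18 lower (9 without the second JVM2 DMSO).

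Of 686 member calls, 100 were lost on leaving out some library, 50 with library size scaling, 41 without the filter, 25 in the fit of all libraries, 4 with counts divided by 8/3 and 0 with DESeq2, and 30 of 403 in the fits of 2 groups. No paired analysis was possible because the library numbers differ between all groups. Each group has 3 libraries of 1 line.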
